A study of Mus musculus with 11 samples.

Results

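Genes that burn fatty acids in mouse liver, and genes that respond to the nuclear receptor PPARA, are described. They were chosen by symbol, as genes of mitochondrial and peroxisomal beta-oxidation, ketone body formation and PPARA response, with thioesterases and Cyp4a genes left out. Of 38 listed symbols, 37 had a row among the 13636 genes of the deposited table, and Fgf21, a hormone that the liver secretes, was not analysed here. The livers came from male C57BL/6J mice, an inbred laboratory strain, that began a Western diet when they were 8 weeks old. All 3 groups shared this diet, which ran for 1 month before the injections and left no group on a standard diet. The PBS group (4 libraries) received saline buffer over the 6 weeks of injection. The scramble group (3 libraries) received a control oligomer, and the mimic group (4 libraries) received a synthetic mimic of the microRNA miR-30c, each at rising doses of 2.5, 5.0 and finally 7.5 mg/kg. The labels used here do not name the carrier of the oligomers or the cells they reach, and they number the libraries of a group without stating that each is a separate mouse. The p-values therefore measure the spread between these libraries, which may be in part technical.

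Fatty acids enter hepatocytes, are bound by carrier proteins and are joined to coenzyme A. The carnitine shuttle carries long acyl chains into mitochondria, where each turn of beta-oxidation removes a pair of carbons and passes electrons to the respiratory chain, while peroxisomes shorten very long and branched chains. PPARA is a receptor for fatty acids in the hepatocyte nucleus: it binds DNA with its partner RXR and raises the transcription of many of these enzymes, above all in fasting, when the liver turns acetyl-CoA into ketone bodies. A microRNA lowers the level or translation of messenger RNAs that pair with its seed, bases 2 to 8 of the small RNA.

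Values are scaled CPM, that is CPM (reads of a gene relative to the depth of its library) after the scaling factor the authors gave each library. Counted reads ran from 39705157 to 101380174 per library, and a listed gene had between 192 reads (Pdk4) and 132561 reads (Fabp1) in a library, so that counting error was small beside the spread between libraries. The 19 rows of major urinary protein (Mup) genes, very abundant hepatocyte transcripts, took between 37.9% and 52.9% of counted reads among the 7 controls. Their share was 34.8% and 41.3% for mimic replicates 2 and 3 but 12.5% and 11.6% for mimic replicates 1 and 4. RNA integrity numbers of 8.4 to 9.2 are given for 7 libraries and none for 4. In bulk liver RNA, fewer cells of a type and less RNA per cell cannot be told apart.

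The mature sequence of the microRNA that the mimic stands for is shown because its seed, in capitals, sets which messages it can pair with. It is the RefSeq entry, encoded at chr1:23291714-23291736 (plus strand) and chr4:120769584-120769606 (minus strand) of GRCm38.p6.
mmu-miR-30c-5p: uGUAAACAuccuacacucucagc
Messages that pair with this seed hold TGTTTAC. In the longest annotated 3′ untranslated region, 2 of the 37 genes (5.41%) held this heptamer, against 1834 of the 11456 genes of the table with such a region (16.0%). The listed genes have shorter regions, with a median of 649 bases against 1166. Searching any annotated transcript gave the same 2 genes and 1941 genes (16.9%) of the table. Both sites, in Pex11a at chr7:79737268-79737290 and in Pdk4 at chr6:5483621-5483643 (both minus strand, GRCm38), are shown with the match in capitals.
Pex11a: tgtcccaaTGTTTACtgtgctta
Pdk4: cttacttgTGTTTACcaaaggtc
A match of letters is a description and not evidence of binding. The median log2 change in mimic against scramble was -0.44 over the 35 listed genes without the heptamer, and Pex11a and Pdk4 had -1.12 ± 0.17 and -1.41 ± 0.44 (SE). Over the whole table the medians were -0.11 for the 1834 genes with it and 0.03 for the 9622 without it.

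Most fatty acid oxidation genes had lower values in the mimic livers than in either control, from the fatty acid carrier Fabp1 to the last steps of mitochondrial and peroxisomal oxidation. On the deposited scaling, 24 of the 37 genes fell in mimic against scramble (limma on log2(value + 1), adjusted p at most 0.05), where 14.7% of all 13636 genes fell and 17.3% rose. Against PBS, 27 of 37 fell, where 17.1% of all genes fell and 20.0% rose. None rose in either comparison by limma, by edgeR or by DESeq2, and 0 had an unadjusted p under 0.05 in that direction. The median change of the 37 genes was -0.46 against scramble (range -1.52 to 0.09) and -0.47 against PBS (range -1.53 to -0.09), with a median of 0.00 over all genes in both. In 24 of the 37 genes every mimic library lay below all 7 control libraries, which was so for 11.5% of all genes. The comparisons share the mimic libraries, so they are not independent of each other.

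**Figure D1:**
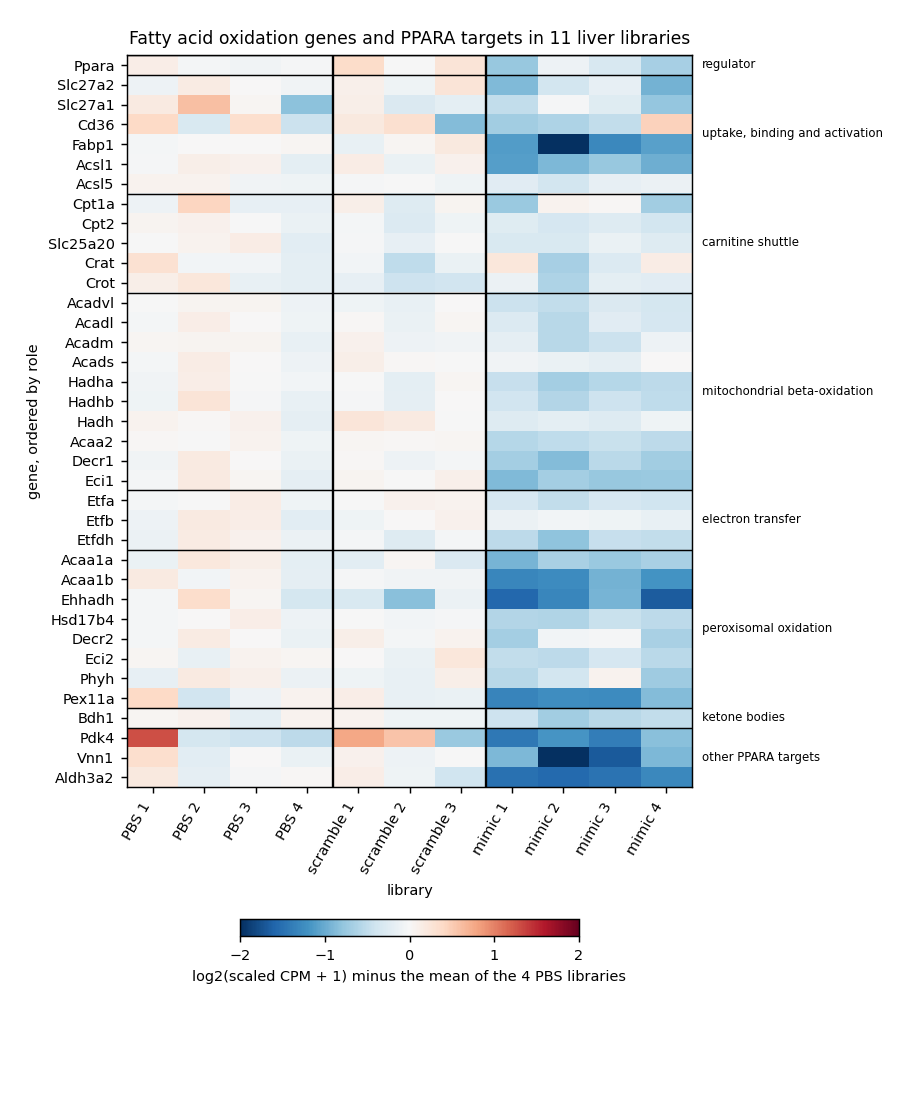
Heat map of the 37 genes (rows, ordered by role) in the 11 libraries (columns), each value being log2(scaled CPM + 1) minus the mean of the 4 PBS libraries. The mimic columns are blue in most rows, pale in the carnitine shuttle, and mimic replicates 1 and 4 differ from 2 and 3 in rows such as Cpt1a and Vnn1. On division by library totals 4 of the 24 falls against scramble stayed past the threshold, where 0.807% of all genes fell.

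The direction depended on how the libraries were put on 1 scale. Of the scalings tried, only plain division by library totals turned the median change positive. Size factors by the median of ratios gave the same 24 and 27 falls, with medians of -0.47 and -0.48, where 15.6% and 17.8% of all genes fell. Factors recomputed by the TMM method of edgeR gave the counts and medians of the deposited scaling. With plain division by library totals, 4 genes fell against scramble (Aldh3a2, Fabp1, Vnn1 and Pdk4) and 5 against PBS (Aldh3a2, Fabp1, Vnn1, Ehhadh and Pex11a), and the medians turned to 0.12 and 0.14. The median of all genes moved to 0.49 and 0.51 under that division, with 5498 genes higher and 110 lower against scramble and 6882 higher and 120 lower against PBS (0.807% and 0.88% of all genes lower), in place of 2363 and 2000, and 2733 and 2326. Relative to the median of all genes, 35 of the 37 were lower against scramble and 36 against PBS under library totals, as were 35 and 37 on the deposited scaling. Division by totals without the Mup rows gave 17 falls in each comparison and medians of -0.27 and -0.28, where all genes had 0.17. Under it 628 of all genes were lower and 3784 higher against scramble (4.61% lower), and 705 lower and 4334 higher against PBS (5.17% lower). The summed share of the 37 genes shows the same dependence: of the reads outside the Mup rows it was 1.51% to 1.72% in PBS, 1.56% to 1.63% in scramble and 1.08% to 1.20% in mimic libraries, while of all counted reads it was 0.710% to 1.06%, 0.781% to 0.994% and 0.704% to 1.01%. The share outside the Mup rows set every mimic library below every control, and the share of all reads did not. The falls of single genes are given on the deposited scaling.

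**Figure D2:**
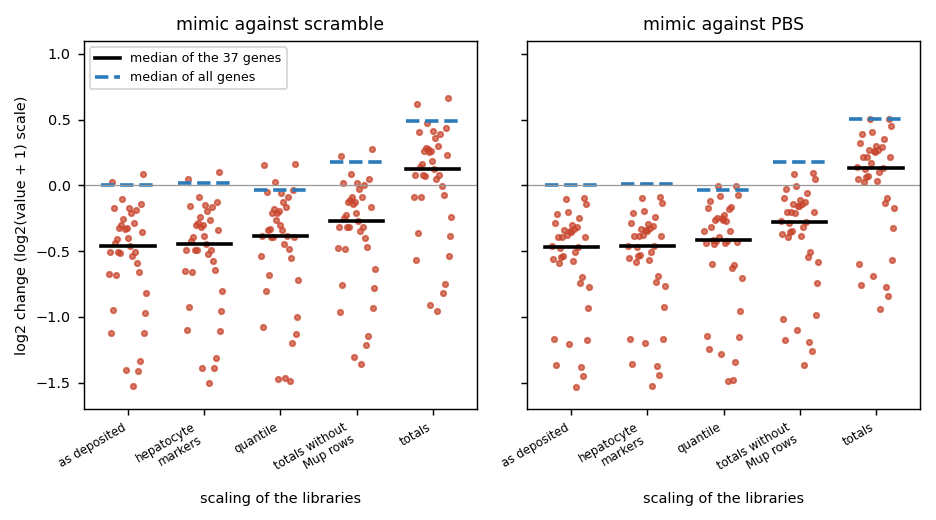
Log2 change of the 37 genes (red points) in mimic against scramble and against PBS under 5 scalings of the libraries, with the median of the 37 genes (black line) and of all genes (dashed blue line). The median of the 37 lies below that of all genes under each of the 5 scalings, from -0.46 against 0.00 as deposited to 0.12 against 0.49 with library totals in mimic against scramble, and its sign turns under library totals.

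In scramble against PBS no listed gene passed the test. By limma, edgeR and DESeq2 0 of the 37 genes were called, and 0.0% of all genes were called by limma, with 434 genes at an unadjusted p under 0.05, 0 calls by edgeR and 14 by DESeq2. The median change of the 37 was -0.03. The only unadjusted p under 0.05 was that of Crot, whose change was -0.32 ± 0.14 (SE), and it was not called. Ehhadh had the widest difference between the controls, -0.42 ± 0.22, with an interval of -0.90 to 0.06 (95%, limma).

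The receptor itself was lower. Ppara (chr15:85734983-85802819, plus strand) stood at 225, 198, 194 and 201 scaled CPM in PBS replicates 1 to 4, at 265, 204 and 243 in scramble replicates 1 to 3, and at 119.8, 189, 163 and 129 in mimic replicates 1 to 4. All 4 mimic values lay below all 7 controls, with replicates 1 and 4 lowest. The change was -0.67 ± 0.15 against scramble and -0.46 ± 0.14 against PBS (SE, limma, adjusted p = 0.0067 and 0.023). The call against PBS was lost without PBS replicate 1 (-0.42), mimic replicate 1 (-0.36) or mimic replicate 4 (-0.40), with limma adjusted p of 0.064, 0.064 and 0.067. This call was also lost under library totals, totals without the Mup rows and quantile normalization, and without mimic replicates 1 and 4 together. The call against scramble was lost under library totals only.

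Fatty acid uptake, binding and activation held Fabp1, the most abundant of the 37 genes per length of transcript. Of its 6 genes, 3 fell against scramble and 4 against PBS, where 14.7% and 17.1% of all genes did. Fabp1, the carrier that binds fatty acids in the hepatocyte cytosol, is encoded at chr6:71199827-71205023 (plus strand). It stood at 1666, 1719, 1712 and 1750.2 scaled CPM in the PBS, 1544, 1750.0 and 1961 in the scramble and 791, 418, 699 and 803 in the mimic libraries. The mimic values were at most 803 and the controls at least 1544, with mimic replicate 2 lowest. The mimic mean was 0.387 of the scramble mean and 0.396 of the PBS mean, a change of -1.41 ± 0.20 and -1.38 ± 0.19 (limma, adjusted p = 0.00054 and 0.00032). Acsl1, the main long-chain acyl-CoA synthetase of liver, which primes fatty acids for oxidation, had 892, 983, 959 and 788 scaled CPM in the PBS, 1005, 827 and 961 in the scramble and 420.3, 486, 531 and 460.3 in the mimic libraries. Here too no mimic value reached a control value, and the change was -0.97 ± 0.12 against scramble and -0.93 ± 0.11 against PBS (limma, adjusted p = 0.00023 and 0.00016). Slc27a2, a transporter that also activates very long chains, had 997, 1191, 1065 and 1015 scaled CPM in the PBS, 1138, 1005 and 1278 in the scramble and 578, 827, 955 and 551 in the mimic libraries.
Mimic replicate 3 came near to the lowest controls, and replicates 1 and 4 were lowest. The change of Slc27a2 was -0.68 ± 0.19 and -0.59 ± 0.17 (limma, adjusted p = 0.018 and 0.021). Its call against scramble was lost without scramble replicate 1 (-0.68, adjusted p = 0.055 by limma) or 3 (-0.59, 0.071), and that against PBS without mimic replicate 1 (-0.49, 0.060) or 4 (-0.47, 0.062).

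Of the other 3 genes of this step, none fell against scramble and 1 fell against PBS. Acsl5, a second acyl-CoA synthetase, had -0.18 ± 0.08 against scramble (limma, adjusted p = 0.11) and fell by 0.22 against PBS (adjusted p = 0.039 by limma). That small fall lost its call when any of PBS replicates 1, 2 or 3, scramble replicates 1 or 2 or mimic replicates 1 or 2 was left out, with changes of -0.24 to -0.17 and limma adjusted p up to 0.103. Slc27a1, a fatty acid transporter better known from muscle and fat, was low in liver at 8.72 ± 2.13 in mimic and 12.2 ± 4.87 in PBS libraries (SD), and did not pass. Without PBS replicate 4 its change against PBS was -0.66, with a limma adjusted p of 0.026. Cd36, the surface receptor that takes up long-chain fatty acids, spread widely in every group, from 26.0 to 59.3 in mimic, 31.5 to 56.4 in PBS and 22.9 to 53.2 in scramble libraries. Its change against scramble was -0.21 ± 0.34 with an interval of -0.96 to 0.53 (95%).

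The regions before the start sites are shown for 3 genes because PPARA and RXR bind a pair of AGGTCA hexamers with 1 base between them. RefSeq promoters (GRCm38.p6, 250 bases before to 50 after a start) were matched for 33 of the 38 genes, 37 promoters in all, and AGGTCANAGGTCA was searched on both strands. No listed promoter held it exactly, while 0.0396% of all 32851 promoters did. With up to 1 mismatch, a search added after the data were seen, Fabp1 held it (2.70% of the 37 promoters, 0.554% of all). With up to 2, also added, Fabp1, Cd36, Etfa and Slc25a20 did (10.8% against 3.86%). The hexamer alone stood in 7 of the 37 promoters (18.9% against 16.3% of all), those of Fabp1, Cd36, Acadm, Phyh, Slc27a2, Acadvl and Cpt1a. Over the 12071 promoters of genes in the table, 0.0497% held the exact pair, 0.522% with up to 1 mismatch and 3.21% with up to 2. The hexamer alone stood in 13.3% of these. In the lines that follow the match is in capitals, at 67 bases before the start in Fabp1, 63 in Cd36 and 77 in Etfa, and it reads as the motif on the other strand.
Fabp1, chr6:71199792-71199844, plus strand: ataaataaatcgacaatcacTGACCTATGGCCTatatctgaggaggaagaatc
Cd36, chr5:17835927-17835979, minus strand: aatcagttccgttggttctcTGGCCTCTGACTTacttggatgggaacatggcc
Etfa, chr9:55512288-55512340, minus strand: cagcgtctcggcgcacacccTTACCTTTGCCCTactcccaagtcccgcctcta
In the mimic livers Fabp1 and Etfa fell, and Cd36 did not pass the test. Many genes that fell, Acsl1, Acaa1b and Pex11a among them, had no match with up to 2 mismatches in these 300 bases, which says only that these letters are not in that window.

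**Figure D3:**
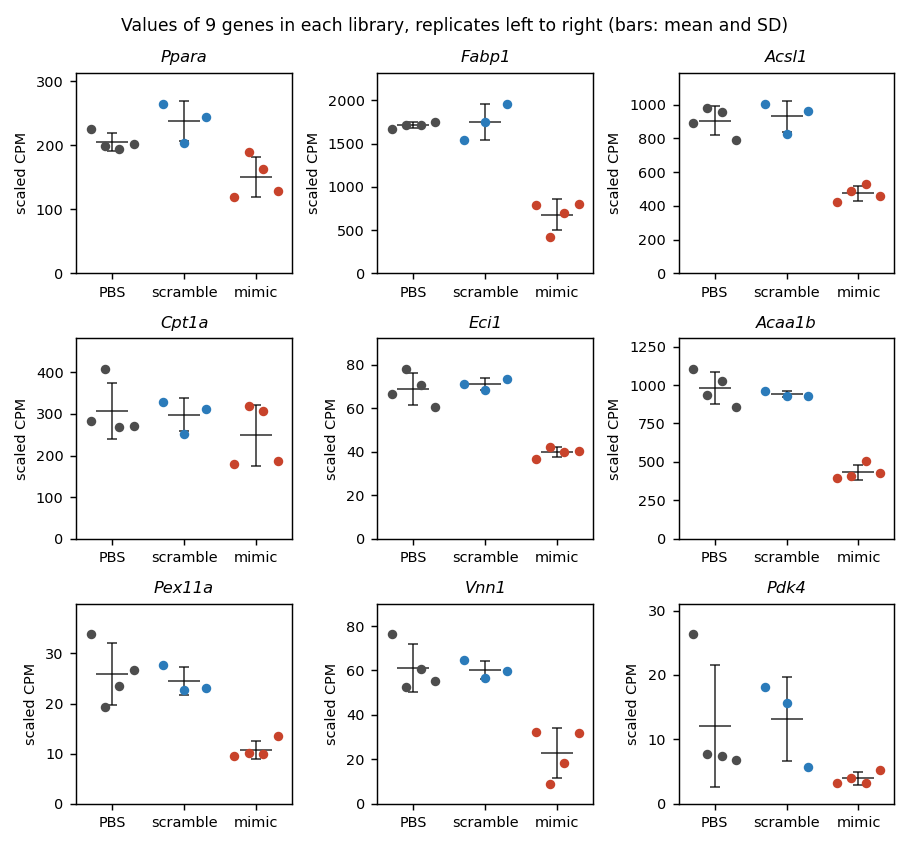
Scaled CPM of 9 genes in each library of the PBS, scramble and mimic groups (points, replicates from left to right within a group), with the group mean and SD (bars). All 4 mimic points lie below all 7 control points in Ppara, Fabp1, Acsl1, Eci1, Acaa1b, Pex11a, Vnn1 and Pdk4, but not in Cpt1a. Under division by library totals the calls against scramble held for Fabp1, Vnn1 and Pdk4 of these.

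In the carnitine shuttle none of the 5 genes fell against scramble by limma, edgeR or DESeq2 (0 at an unadjusted p under 0.05). By limma 14.7% of all genes fell there, and with 5 genes 0 falls cannot be told apart from that share. Against PBS 2 of the 5 fell, where 17.1% of all genes did, and all 5 changes were negative. Cpt1a, which joins long acyl chains to carnitine at the outer mitochondrial membrane and is the main control point of the pathway, is encoded at chr19:3322334-3385733 (plus strand). It had 283, 408, 269 and 271 scaled CPM in the PBS, 329, 253 and 313 in the scramble and 181, 318, 307 and 188 in the mimic libraries. Mimic replicates 2 and 3 lay within the range of the controls and replicates 1 and 4 below it, and PBS replicate 2 stood above all others. The change was -0.30 ± 0.22 against scramble with an interval of -0.79 to 0.19 (95%), and -0.34 ± 0.21 against PBS with one of -0.79 to 0.12 (limma, adjusted p = 0.32 and 0.22).
Cpt2, the inner membrane enzyme that hands the chain back to coenzyme A, stood at 80.5, 82.8, 77.5 and 70.5 scaled CPM in the PBS, 75.4, 64.5 and 73.0 in the scramble and 65.4, 61.2, 64.5 and 60.2 in the mimic libraries. Mimic values lay below all PBS values and overlapped the scramble values at scramble replicate 2. The change was -0.17 ± 0.08 against scramble and -0.30 ± 0.08 against PBS (limma, adjusted p = 0.13 and 0.0096). Slc25a20, the carnitine-acylcarnitine exchanger, had 62.0, 65.8, 69.3 and 54.1 scaled CPM in the PBS, 61.8, 55.5 and 62.1 in the scramble and 50.2, 50.3, 57.2 and 52.4 in the mimic libraries.
Both groups of controls overlapped the mimic libraries through PBS replicate 4 and scramble replicate 2. Its change was -0.19 ± 0.09 and -0.25 ± 0.09 (limma, adjusted p = 0.14 and 0.038), and the call against PBS was lost on leaving out any of PBS replicates 1, 2 or 3, scramble replicate 1 or mimic replicates 1, 2 or 4 (changes of -0.25 to -0.20, limma adjusted p up to 0.113). Crat and Crot, which move short and medium acyl groups onto carnitine, did not pass: Crat had 0.09 ± 0.20 and -0.14 ± 0.19, and Crot 0.03 ± 0.14 and -0.29 ± 0.13. These were the 2 genes above 0 against scramble.

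In mitochondrial beta-oxidation 8 of 10 genes fell in each comparison, where 14.7% (scramble) and 17.1% (PBS) of all genes did. The changes of all 10 ran from -0.82 to -0.14 against scramble, with a median of -0.37. Eci1, an isomerase that moves double bonds of unsaturated chains, had 66.8, 78.1, 70.5 and 60.4 scaled CPM in the PBS, 71.2, 68.4 and 73.7 in the scramble and 36.8, 42.3, 40.0 and 40.5 in the mimic libraries. The highest mimic value, 42.3, lay well under the lowest control, 60.4. The change was -0.82 ± 0.09 against scramble and -0.77 ± 0.08 against PBS (limma, adjusted p = 9.6e-05 and 7.4e-05). Decr1, the 2,4-dienoyl-CoA reductase that is also needed for unsaturated chains, had 124, 147, 131 and 118 scaled CPM in the PBS, 131, 121 and 126 in the scramble and 80.2, 70.5, 88.7 and 79.4 in the mimic libraries.
It fell with no overlap, with changes of -0.66 ± 0.10 and -0.70 ± 0.09 (limma, adjusted p = 0.00058 and 0.00021). Acaa2, the thiolase of the last step, had 354, 349, 365 and 328 scaled CPM in the PBS, 358, 353 and 357 in the scramble and 236, 244, 257 and 242 in the mimic libraries. The mimic libraries spanned 236 to 257 and the controls 328 to 365, a change of -0.54 ± 0.08 and -0.51 ± 0.07 (limma, adjusted p = 0.00048 and 0.00035).

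The trifunctional protein carries the middle steps for long chains and is made of the products of Hadha and Hadhb. These genes start next to each other on opposite strands. The 85 bases between their starts, chr5:30155163-30155247 in GRCm38.p6, are shown because both genes share them: they are 69.4% G or C and hold 0 copies of AGGTCA on either strand.
Hadha and Hadhb: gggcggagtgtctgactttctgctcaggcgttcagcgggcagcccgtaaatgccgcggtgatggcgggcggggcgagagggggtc
Hadha had 191, 221, 199.8 and 193 scaled CPM in the PBS, 199.8, 174 and 207 in the scramble and 146, 125, 135 and 139 in the mimic libraries. Hadhb had 50.4 ± 6.59, 48.0 ± 3.31 and 35.8 ± 2.42 in the PBS, scramble and mimic groups (SD). Neither gene's mimic values overlapped the controls, and the changes against scramble were -0.51 ± 0.09 for Hadha and -0.41 ± 0.10 for Hadhb (limma, adjusted p = 0.002 and 0.01). Of the acyl-CoA dehydrogenases, which open beta-oxidation of chains of different length, Acadvl fell by 0.32 and 0.39 and Acadl by 0.32 and 0.35 against scramble and PBS. Without scramble replicate 3, Acadvl against scramble was -0.28 (limma, adjusted p = 0.053). Acadl lost its call against scramble without scramble replicate 1 (-0.30, limma, adjusted p = 0.083) or 3 (-0.29, 0.085). Acadm, the medium-chain enzyme, had -0.28 ± 0.11 against scramble (limma, adjusted p = 0.079, passing without mimic replicate 4 at -0.35) and fell by 0.32 against PBS. The latter call was lost without PBS replicate 1, 2 or 3 or mimic replicate 2 or 3 (-0.30 to -0.24, limma adjusted p up to 0.091). The short-chain enzyme Acads did not pass, at -0.14 ± 0.08 and -0.09 ± 0.07. Hadh, the dehydrogenase for medium and short chains, fell by 0.33 against scramble and had -0.20 ± 0.09 against PBS (limma, adjusted p = 0.019 and 0.09). Its call was lost without scramble replicate 1 (-0.28) or 2 (-0.31), and without PBS replicate 4 it passed against PBS as well (-0.26, adjusted p = 0.046 by limma). Acadl and Hadh also lost their calls against scramble with quantile normalization, on centring on hepatocyte markers and with the replicate number as a block.

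Electrons from the dehydrogenases pass through the flavoprotein ETF, made of Etfa and Etfb, to its oxidoreductase Etfdh. Etfa had 94.97, 97.1, 109 and 91.9 scaled CPM in the PBS, 97.2, 104 and 103 in the scramble and 77.2, 69.5, 77.1 and 74.2 in the mimic libraries. Its mimic values did not overlap the controls, and it fell by 0.44 and 0.39 (limma, adjusted p = 0.0018 and 0.0019). Etfdh had 165, 200.1, 189 and 164 scaled CPM in the PBS, 175, 149 and 174 in the scramble and 125, 101, 129 and 127 in the mimic libraries.
Mimic replicate 2 stood apart as the lowest and again no mimic value reached a control. The change was -0.46 ± 0.11 and -0.57 ± 0.10 (limma, adjusted p = 0.0097 and 0.0017). Etfb, the partner subunit of Etfa, stood at 88.6, 108, 104 and 81.5 scaled CPM in the PBS, 89.4, 95.9 and 101 in the scramble and 87.8, 91.0, 89.3 and 85.7 in the mimic libraries. Its groups overlapped, and its changes of -0.11 ± 0.10 and -0.10 ± 0.09, with intervals of -0.32 to 0.11 and -0.30 to 0.10 (95%), did not pass (limma, adjusted p = 0.43 and 0.4). The 2 subunits of the same protein thus had different calls, and the difference between their changes was not tested.

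**Figure D4:**
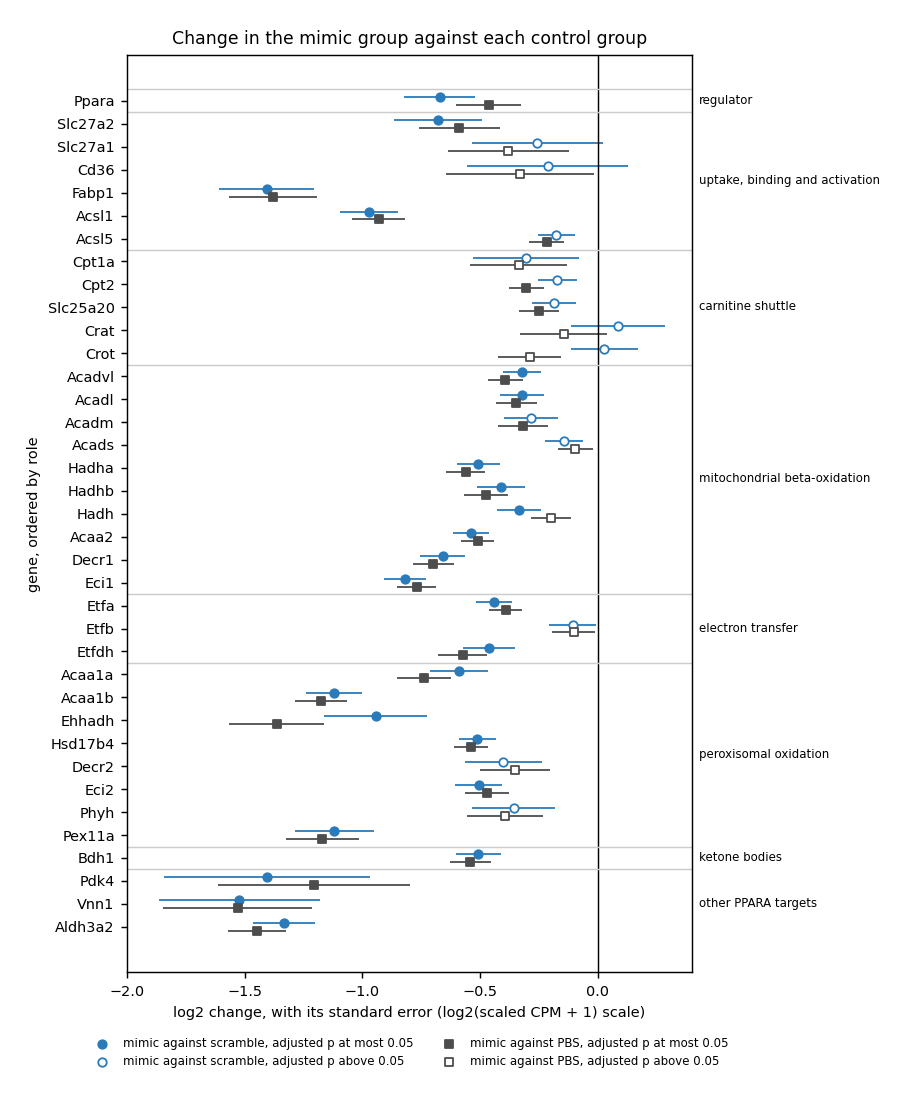
Log2 change of each gene in mimic against scramble (circles) and against PBS (squares) with its SE, filled where the adjusted p was at most 0.05, in order of role. The changes run from -1.53 (Vnn1 against PBS) to 0.09 (Crat against scramble), and the carnitine shuttle has no filled circle and 2 filled squares. With division by library totals 4 and 5 calls held, where 0.807% and 0.88% of all genes fell.

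In peroxisomal oxidation 6 of 8 genes fell against each control, where 14.7% (scramble) and 17.1% (PBS) of all genes did. The medians over the 8 were -0.55 and -0.64. Acaa1b, a peroxisomal thiolase induced by PPARA in rodents, is encoded at chr9:119148023-119157093 (minus strand). It had 1105, 936, 1024 and 859 scaled CPM in the PBS, 964, 929.7 and 928 in the scramble and 394, 409, 504 and 427 in the mimic libraries. The mimic libraries spanned 394 to 504 and the controls 859 to 1105. The mean fell to 0.461 of scramble and 0.442 of PBS, a change of -1.12 ± 0.12 and -1.18 ± 0.11 (limma, adjusted p = 8.1e-05 and 3.2e-05). Acaa1a, its close relative on the same chromosome, had 213, 271, 253 and 203 scaled CPM in the PBS, 202, 240.3 and 191 in the scramble and 123, 149, 138 and 149 in the mimic libraries.
Acaa1a fell by 0.59 and 0.74 with no overlap (limma, adjusted p = 0.0048 and 0.0007). Coding sequences of this pair, 1275 bases each, are 96.5% identical, and 39.2% of stretches of 48 bases, the read length, occur in both, so the split of reads between them is uncertain. As long as each shared read was counted once, their sum does not depend on the split. It was 1062 to 1318 in PBS, 1119 to 1170 in scramble and 516 to 643 in mimic libraries. The ratio of Acaa1b to Acaa1a was 3.46 to 5.18 in PBS, 3.87 to 4.85 in scramble and 2.74 to 3.64 in mimic libraries. Mimic replicate 3 lay within the PBS range of this ratio and the other mimic libraries below it.

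Pex11a, which helps peroxisomes divide and is a PPARA target, had 33.8, 19.3, 23.5 and 26.7 scaled CPM in the PBS, 27.8, 22.7 and 23.1 in the scramble and 9.50, 10.2, 9.95 and 13.5 in the mimic libraries. All mimic libraries were at 13.5 or less and all controls at 19.3 or more. The change was -1.12 ± 0.17 and -1.17 ± 0.16 (limma, adjusted p = 0.00069 and 0.00027). Hsd17b4, the second multifunctional enzyme of peroxisomes, had 215, 222, 241 and 206 scaled CPM in the PBS, 219, 213 and 217 in the scramble and 146, 146, 162 and 153 in the mimic libraries.
It fell by 0.51 and 0.54 with no overlap and little spread (limma, adjusted p = 0.00087 and 0.00033). Ehhadh, the first such enzyme and a classic PPARA target, fell from 241 ± 58.9 in scramble and 320.1 ± 63.3 in PBS to 124 ± 30.3 in mimic libraries (SD), a change of -0.94 ± 0.22 and -1.36 ± 0.20. Eci2, an isomerase of peroxisomes and mitochondria, fell by 0.51 and 0.47.

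Decr2 and Phyh did not pass. Decr2, the peroxisomal dienoyl-CoA reductase, had 125, 143, 129 and 116 scaled CPM in the PBS, 139, 124 and 135 in the scramble and 79.4, 124, 126 and 81.6 in the mimic libraries. Mimic replicates 2 and 3 lay within the range of the controls and replicates 1 and 4 far below it, and the change was -0.40 ± 0.16 and -0.35 ± 0.15 (limma, adjusted p = 0.078 and 0.086). Without mimic replicate 2 or 3 it passed in both comparisons, at -0.50 or -0.51 against scramble and -0.45 or -0.46 against PBS. Phyh, which starts the breakdown of branched phytanic acid, had -0.36 ± 0.18 and -0.39 ± 0.16 (limma, adjusted p = 0.14 and 0.077), and without mimic replicate 3 it passed at -0.51 and -0.55.

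Bdh1, which forms the ketone body beta-hydroxybutyrate, had 115, 119, 98.0 and 117 scaled CPM in the PBS, 118, 105 and 105 in the scramble and 83.6, 68.6, 76.2 and 79.1 in the mimic libraries. No mimic value reached the controls, and it fell by 0.51 and 0.54 (limma, adjusted p = 0.0024 and 0.00088).

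The 3 other PPARA targets all fell, with median changes of -1.41 and -1.45, where 14.7% and 17.1% of all genes fell. Aldh3a2, which oxidises fatty aldehydes, is encoded at chr11:61223417-61267464 (minus strand) and stood at 446, 344, 383 and 397 scaled CPM in the PBS, 429, 369.7 and 295 in the scramble and 139, 133, 140.0 and 160.2 in the mimic libraries. The 4 mimic libraries spanned 133 to 160.2 and the controls 295 to 446. The mean fell to 0.392 of scramble and 0.364 of PBS, a change of -1.33 ± 0.13 and -1.45 ± 0.12 (limma, adjusted p = 5.5e-05 and 1.7e-05). Vnn1, a pantetheinase bound to the cell surface, had 76.4, 52.4, 60.5 and 55.3 scaled CPM in the PBS, 64.5, 56.5 and 59.8 in the scramble and 32.1, 8.78, 18.2 and 32.1 in the mimic libraries. Every mimic library was below every control, and mimic replicate 2 was the lowest of all.
The change was -1.52 ± 0.34 and -1.53 ± 0.32 (limma, adjusted p = 0.0067 and 0.0037). Pdk4, a kinase that shuts glucose carbon out of the mitochondrion when fat is burned, had 26.3, 7.80, 7.42 and 6.81 scaled CPM in the PBS, 18.1, 15.6 and 5.73 in the scramble and 3.15, 3.97, 3.28 and 5.31 in the mimic libraries. The controls themselves spread widely, with PBS replicate 1 and scramble replicates 1 and 2 high. All mimic libraries lay below the lowest control, scramble replicate 3 (5.73), with mimic replicate 4 (5.31) nearest to it. The change of Pdk4 was -1.41 ± 0.44 and -1.21 ± 0.41 (limma, adjusted p = 0.031 and 0.037).
The call against scramble was lost without scramble replicate 1 (-1.12) or 2 (-1.22) or mimic replicate 1 (-1.33), 2 (-1.42) or 3 (-1.35), with limma adjusted p from 0.0502 to 0.125. Against PBS it was lost without PBS replicate 1 (-0.78) or mimic replicate 1 (-1.13), 2 (-1.22) or 3 (-1.15), with adjusted p from 0.062 to 0.083 by limma.

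Transcript levels per length spanned a wide range. In PBS libraries Fabp1 had 3095 ± 63.2 scaled CPM per kilobase of merged exons, followed by Phyh (589 ± 69.2), Acaa1b (500.0 ± 54.3), Slc27a2 (284 ± 23.3) and Acaa2 (230.2 ± 10.2; SD, n = 4). In this order 31 of the 36 pairs of neighbours, Phyh and Acaa1b among them, overlapped over the 4 libraries, while the ranges of Fabp1 and its nearest follower did not. Lowest were Crat (7.03 ± 1.11), Pdk4 (3.44 ± 2.71) and Slc27a1 (2.09 ± 0.834). The first 5 ranks were held by the same genes in the mimic libraries, while Ehhadh went from rank 6 to 12 and Aldh3a2 from rank 9 to 22. Merged exon length is that of the annotation and not of the transcript used in liver, so the order is approximate.

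The 4 mimic libraries did not move together in all genes. Replicates 1 and 4, the pair with the least Mup reads, lay both below replicates 2 and 3 in 10 of the 37 genes (27.0%, against 27.2% of all genes) and both above in 7 (18.9%, against 25.9%). Such splits were no more frequent than over the whole table. Among the genes lower in replicates 1 and 4 were Cpt1a (-0.76 on the log2 scale), Slc27a2 (-0.65), Decr2 (-0.63), Ehhadh (-0.51), Ppara (-0.49) and Phyh (-0.48). Vnn1 (1.27), Crat (0.65), Fabp1 (0.56) and Acadm (0.35) were higher in them. Fitted without mimic replicates 1 and 4, 21 genes fell against scramble and 22 against PBS, where 7.12% and 8.37% of all genes did.

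**Figure D5:**
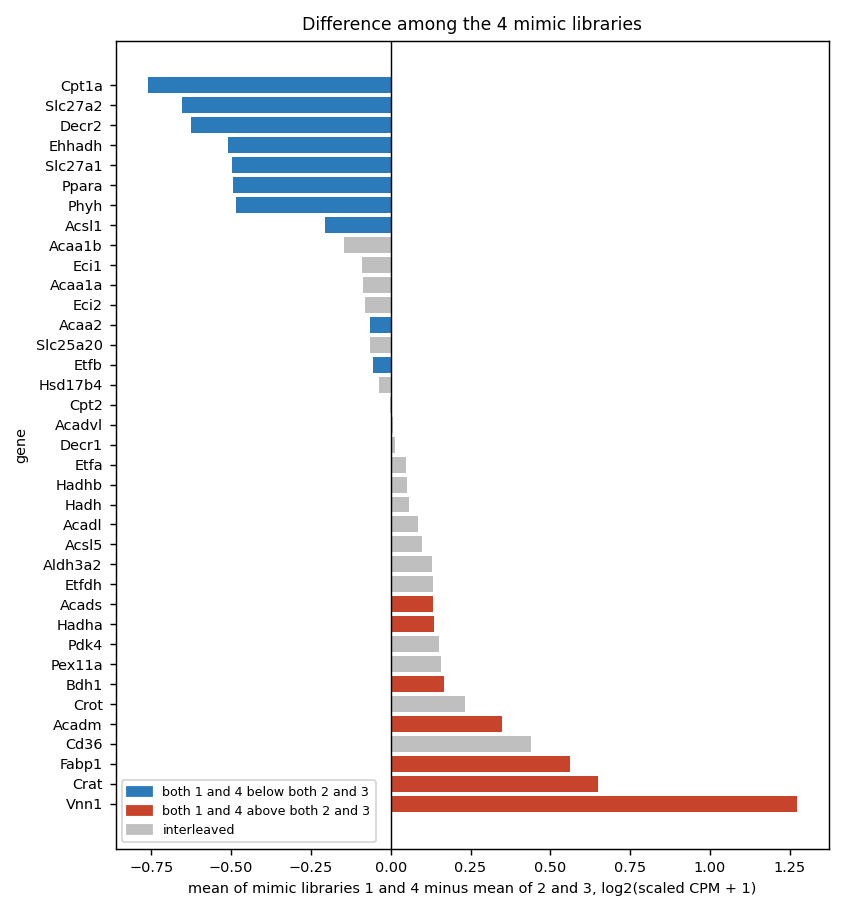
Mean of mimic replicates 1 and 4 minus mean of replicates 2 and 3 for each of the 37 genes, as log2(scaled CPM + 1), coloured where both of one pair lie below (blue, 10 genes) or above (red, 7 genes) both of the other. Cpt1a (-0.76) and Vnn1 (1.27) are the extremes.

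Other genes of the pathway were taken from lists made by function. Over all genes 14.7% fell and 17.3% rose against scramble, and 17.1% fell and 20.0% rose against PBS. Of 32 further genes of fatty acid oxidation and ketone body formation, 15 fell and 1 rose against scramble, with a median of -0.31, and 15 fell and 2 rose against PBS, with a median of -0.22. Acadsb, for short branched chains, changed by -0.67, and Nudt7, a peroxisomal hydrolase of coenzyme A, by -1.47. Oxct1, which lets tissues other than liver burn ketone bodies, was the 1 that rose, from 1.56 to 3.22 scaled CPM.

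Of 14 further PPARA targets, 4 fell and 1 rose against scramble (median -0.27), and 8 fell and 1 rose against PBS (median -0.45). Among all genes 14.7% fell and 17.3% rose against scramble, and 17.1% fell and 20.0% rose against PBS. Cidec, a lipid droplet protein, changed by -1.81, the lipase Mgll by -1.16, the phosphatidate phosphatase Lpin2 by -0.997 and Cpt1b, the muscle form of the shuttle enzyme, by -0.75. Ucp2, a carrier of the inner mitochondrial membrane, rose by 1.33. Among 19 partners and coregulators of PPARA, 3 fell and 1 rose against scramble and 6 and 1 against PBS, where 14.7% and 17.1% of all genes fell. Rxra, the main partner receptor in liver, was at 203 ± 20.7 in mimic against 211 ± 16.4 in scramble libraries (-0.05 ± 0.10, limma, adjusted p = 0.70). The coactivator Ppargc1a had -0.28 ± 0.27 against scramble and -0.49 ± 0.25 against PBS and did not pass. Ncor1, a corepressor, changed by -0.58, Lpin1, a relative of Lpin2 that also acts as a coactivator, by -1.45 and the deacetylase Sirt1 by -0.39, while Rxrg, at low level, rose by 0.50. Of 17 genes of peroxisome formation, 5 fell and 1 rose against scramble (median -0.15), where 14.7% and 17.3% of all genes did. Cat, the peroxisomal catalase, changed by -0.60, Pex6 by -0.39, Pex3 by -0.33 and Pex13 by -0.26. Pex10 rose by 0.32.

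Markers of cell types were also counted, where 17.3% of all genes rose and 14.7% fell against scramble. Against scramble the shares for hepatocyte markers were no larger than these, and those for endothelial markers were close to them. Of 29 hepatocyte markers measured, 4 rose and 2 fell against scramble (median -0.01), and their summed level was 39476 to 45827 in PBS, 40531 to 44804 in scramble and 34091 to 40375 in mimic libraries, where the summed level of the 37 genes was 9748 to 11135, 9780 to 10830 and 6059 to 7271. With every library centred on the hepatocyte markers, 23 of the 37 genes fell against scramble and 26 against PBS, where 10.2% and 13% of all genes did. All 15 acute phase genes, made by hepatocytes in inflammation, were measured and 13 rose against scramble, with summed levels of 6069 to 7186 in PBS, 6116 to 6999.6 in scramble and 22849 to 52002 in mimic libraries. Of 15 macrophage markers 8 rose and 3 fell (summed levels 96.2 to 215, 97.9 to 174 and 168 to 322), and of the 8 neutrophil markers all 5 measured rose (1.65 to 2.66, 1.17 to 1.77 and 16.2 to 35.6). Of 11 stellate cell and fibroblast markers 8 rose and 1 fell (71.4 to 114, 103 to 111 and 222 to 429). Of 10 endothelial markers 2 rose and 2 fell (96.1 to 125, 99.1 to 122 and 70.1 to 114). Against PBS 1 endothelial marker rose and 5 fell, where 20.0% and 17.1% of all genes did. Both bile duct markers measured, of 6 listed, were higher (11.7 to 20.6, 13.5 to 22.8 and 35.4 to 42.5), of which 1 passed against scramble, and none of the 10 lymphocyte markers had a row. Of 10 fat and muscle markers 2 were measured, of which Fabp4 rose and Cfd fell. Cfd, a marker of fat tissue, had 38.5, 14.5, 32.3 and 8.07 scaled CPM in the PBS libraries. It had 54.7, 115 and 0.718 in the scramble and 0.112, 0.393, 0.188 and 4.13 in the mimic libraries. Fabp4 ran from 2.64 to 3.57 in PBS, 2.59 to 3.39 in scramble and 4.19 to 6.05 in mimic libraries. Fat tissue in the samples was not tested for. The part of these changes in the falls of the fatty acid oxidation genes was not tested.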

How the data were processed

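RNA-seq of 11 liver libraries was used: 4 PBS, 3 scramble and 4 mimic, grouped by title. Per the labels, stranded mRNA libraries were read as 48-base pairs. The submitters' processing notes name the build mm10, the tools Bowtie, edgeR 3.8.6, R 3.1.2 and bedtools 2.17.0, and also SAMtools 0.1.19, FastQC 0.11.3 and bcl2fastq 1.8.4, in roles not given in the sources used here. The deposited values are a signal, scaled CPM per gene: all values of a library (100%) were whole multiples of 1 step (tolerance 1e-06), from which reads were recovered, and the factors between these values and plain CPM ran from 0.665 to 1.65. Every deposited gene was kept.

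The main test was limma 3.58.1 (R 4.3.3) on log2(value + 1), 1 fit of 3 group means over all libraries with a trend of the variance on the mean. P-values were adjusted by Benjamini-Hochberg over 13636 genes, with a threshold of 0.05. The log2 scale understates changes of low genes. A CPM table had been assumed, and the scaled signal was treated alike. Alternatives were pseudocounts of 0.25 and 5, minimum means of 1 and 5, other scalings, variance models, library weights, the replicate number as a block, leaving out libraries, and count tests on the recovered reads (DESeq2 1.42.0 and edgeR 4.0.16). The fit was checked on simulated counts with the library factors given, so that check does not bear on the choice of scaling. Differences between libraries of a group exceeded sampling noise, so none was taken as a duplicate.

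The members and lists were chosen with earlier results of these data known. Values in every library are given for up to 3 genes per role with the smallest p in mimic against scramble and for Ppara, Cpt1a, Pdk4 and Acaa1a, and for Hadha and Decr2, chosen after their values were seen. Of other lists, up to 4 called genes with the smallest p are named, with Rxra and Ppargc1a, and in addition the genes that rose. Some genes that this rule names are not reported here. Positions and 3′ untranslated regions came from GENCODE M21 (GRCm38, the assembly of mm10), miRNA and promoter sequences from RefSeq (GRCm38.p6).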

Additional observations from a re-analysis of the deposited data

Results flagged for a closer look

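Among 74 groups of 4 libraries (37 genes in the PBS and mimic groups), 5 held a library whose gap to its nearest neighbour was wider, relative to the range of the group on the log2(value + 1) scale, than the 95% critical value of Dixon's test. Chance alone flags about 1 in 20 such groups. Cpt1a was at 408 scaled CPM in PBS replicate 2, above the other PBS libraries. Acadm was at 167 in PBS replicate 4 and Eci2 at 148 in PBS replicate 2, each below the others. Pdk4 was at 26.3 in PBS replicate 1, above the others. Etfdh was at 101 in mimic replicate 2, below the other mimic libraries.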

How the results depend on the processing

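No gene of the 37 was called higher in any alternative, and none was called in scramble against PBS. Counts of falls against scramble and PBS were 24 and 27 with edgeR (the same genes), 25 and 29 with DESeq2, 21 and 23 with quantile normalization, and 20 to 25 and 22 to 29 on leaving out 1 library at a time. Division by library totals gave 4 and 5, where 0.807% and 0.88% of all genes fell. Totals without the Mup rows gave 17 and 17, where 4.61% and 5.17% of all genes fell. The calls lost with quantile normalization were Acadl, Acadvl and Hadh against scramble, and Acadm, Acsl5, Ppara and Slc25a20 against PBS. The share of all genes that fell ran from 15% to 18% against scramble and 17.1% to 19.9% against PBS with edgeR, DESeq2 and quantile normalization, and from 8.54% to 16.9% and 12% to 19.7% without 1 library. Mup reads count in the totals, so a lower Mup share leaves more of a total to other genes. With the Mup rows left out the median of all genes was still 0.17 in both comparisons. Which scaling applies was not tested. Same-numbered libraries were not clearly more alike than others. Over 10 same-numbered pairs the correlations of deviations ran from -0.28 to 0.26, with 3 above 0.1. Over 30 other pairs they ran from -0.40 to 0.35, with 8 above 0.1. So few pairs cannot exclude a pairing. The fit with the replicate number as a block gave 22 and 26 falls (12.4% and 15.3% of all genes).

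Under library totals, 22 of the 37 changes against scramble turned from negative to positive, none of them called. Of these, 11 were of genes that fell on the deposited scaling: Acadvl 0.26, Acadl 0.26, Hadha 0.078, Hadhb 0.16, Hadh 0.25, Acaa2 0.047, Etfa 0.14, Etfdh 0.12, Hsd17b4 0.074, Eci2 0.079 and Bdh1 0.076. The other 11 lay between 0.18 and 0.48. Against PBS 26 turned positive, none of them called, of which 16 were of genes that fell on the deposited scaling: Ppara 0.14, Slc27a2 0.022, Acsl5 0.39, Cpt2 0.30, Slc25a20 0.35, Acadvl 0.21, Acadl 0.26, Acadm 0.29, Hadha 0.045, Hadhb 0.12, Acaa2 0.099, Etfa 0.21, Etfdh 0.033, Hsd17b4 0.069, Eci2 0.14 and Bdh1 0.063. The other 10 lay between 0.17 and 0.51. The changes of the genes listed here by name lay below the median of all genes under that division. Of all 37 genes, 35 lay below it against scramble and 36 against PBS.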
